A study of Homo sapiens with 12 samples.

Results

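The comparison of SKBG-1(R) with its solvent DMSO concerns the sites on RNA that the protein NONO contacts in 22Rv1 cells, a human prostate cancer cell line. Its members are all peaks of the 4 lists that belong to these groups, 21147 of the 26351 peaks of the series. DMSO replicates 1 and 2 contributed 669 and 3678 peaks, and SKBG-1(R) replicates 1 and 2 contributed 1953 and 14847. The contacts were mapped by eCLIP, in which ultraviolet light (400 mJ here) links proteins to RNA, the protein is pulled down with an antibody, and the RNA fragments are sequenced and set against an input library of the same lysate. Both groups were 22Rv1 cells grown for 40 h and exposed for 4 h to 0.04% DMSO. The cells of 1 group received nothing else, and those of the other also received SKBG-1(R) at 20 µM. Each group had 2 pull-down libraries with 1 input each, so 8 of the 12 libraries in the series enter the comparison. The 2 lists of the stereoisomer SKBG-1(S) served to estimate the spread. They also counted toward the 10 peaks over 6 lists that a gene needed to be tested. The title of the study places these compounds among small molecules that target NONO, and the comparison asks whether SKBG-1(R) changed where NONO sits on RNA.

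NONO belongs to the DBHS family of nuclear proteins, which bind both RNA and DNA and act as dimers with SFPQ or PSPC1. It is a core protein of paraspeckles, nuclear bodies that form around the long noncoding RNA NEAT1, and it takes part in transcription, splicing and the retention of RNA in the nucleus. Much of its RNA contact is with introns of transcripts still being made. In prostate cancer cells it is known as a cofactor of transcription and of the processing of transcripts.

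The lists had unequal lengths, and 1 stood apart: SKBG-1(R) replicate 2 held 70.2% of all peaks compared. For that reason a gene is described by its number of peaks per 10000 peaks of its list, a share and not an amount of bound RNA. Peaks were found in 236 and 809 genes in DMSO and in 503 and 1287 genes with SKBG-1(R). Sequencing depth is unknown, and a gene without a peak is not shown to be unbound. The lists come from bulk lysates, so fewer bound cells and less bound RNA per cell cannot be told apart. The transcripts of NONO, SFPQ and PSPC1 held 0 peaks in every list, and NEAT1 held 1, in SKBG-1(R) replicate 1. Of 13 prostate genes 3 held a peak, among them TMPRSS2 (0, 2, 0 and 2 peaks in DMSO 1, DMSO 2, SKBG-1(R) 1 and SKBG-1(R) 2) and SLC45A3 (0, 1, 0 and 1), while KLK2, KLK3 and FOXA1 held none. Of 15 markers of other cell types 0 held a peak. The lists record RNA contact, so these counts do not measure expression of the markers.

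Some of the sites lay within annotated RNA whose sequence is known, and these are shown to give the contacts a physical form. SKBG-1(R) replicates 1 and 2 each had 1 peak over the microRNA gene MIR3619, at chr22:46091077-46091129 (GRCh38, plus strand) inside the let-7 host transcript MIRLET7BHG, and neither DMSO list had one. The peak covers the 3′ arm of the hairpin and the last bases of the 5′ arm. The mature sequences, from RefSeq (GRCh38.p14), are given 5′ to 3′ with the seed, bases 2 to 8, in capitals.
hsa-miR-3619-5p: uCAGCAGGcaggcuggugcagc
hsa-miR-3619-3p: gGGACCAUccugccugcugugg
The let-7b precursor at the 3′ end of the same host carried 1 peak in SKBG-1(R) replicate 2 and none in the other 3 lists.
hsa-let-7b-5p: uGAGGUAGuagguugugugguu
The microRNA gene MIR149 carried 1 peak in DMSO replicate 2, and 2 peaks in the SKBG-1(R) list of that number, and MIR3176 carried 2 in each. The peaks over the arms named here are 1 in each list for the 5′ arm of miR-149, and 1 and 2 for miR-3176.
hsa-miR-149-5p: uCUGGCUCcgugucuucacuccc
hsa-miR-3176: aCUGGCCUgggacuaccgg
Of 17 mature microRNAs read here under peaks of the 4 lists, which are not all such microRNAs, none shared its seed with another. With 1 or 2 peaks each, these sites describe single lists and were not tested.

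Other sites are shown by their first 30 bases within an annotated GENCODE 29 transcript, 5′ to 3′ on the RNA strand, one pair or single region for each pattern of occurrence. The strongest region that both SKBG-1(R) lists shared and neither DMSO list held lay in an intron of ATXN2, the gene of ataxin 2, a protein of messenger RNA metabolism. It spans chromosome 12 from 111598196 to 111598278 on the minus strand, and the authors' log2 enrichment over input there was 4.83 and 4.85. A coding exon region of BBC3, the gene of the apoptosis protein PUMA, had the same pattern with 3.77 and 4.24 (chromosome 19 from 47228128 to 47228243, minus strand).
ATXN2, SKBG-1(R) lists only, chr12:111598249-111598278: aaggggtaggcaccgggctcctccggaatc
BBC3, SKBG-1(R) lists only, chr19:47228214-47228243: cgccccacccgccgtcaccgccgccctggg
A region of MATR3, the gene of the nuclear matrix protein matrin 3, was shared by the DMSO lists and missing from both SKBG-1(R) lists. Its enrichments were 3.33 and 3.58 (chromosome 5 from 139294021 to 139294144, plus strand). Each SKBG-1(R) list held 2 other MATR3 peaks nearby, within 139293880 to 139294229 in replicate 1 and 139294192 to 139294776 in replicate 2.
MATR3, DMSO lists only, chr5:139294021-139294050: cggcggaggtgagcggtccgggagggaaac
A neighbouring intronic region of ATXN2, from 111598332 to 111598898, was in all 4 lists, with log2 enrichments of 3.83, 4.32, 4.79 and 5.32 in the order of DMSO 1, DMSO 2, SKBG-1(R) 1 and SKBG-1(R) 2. A coding exon region of PTMA, the gene of prothymosin alpha, was also in all 4.
ATXN2, all 4 lists, chr12:111598537-111598566: atccccgccccctcccccggcggtcaagat
PTMA, all 4 lists, chr2:231710427-231710456: gctccccggggcttcggccgccagggggcg
Both patterns therefore occur in neighbouring intronic stretches of ATXN2.

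AFF3 showed the largest difference toward fewer peaks with SKBG-1(R). AFF3 encodes an AF4 family member linked to transcription elongation and lies on chromosome 2 from 99545419 to 100142739. It held 254.1 and 84.3 peaks per 10000 in DMSO (17 and 31 peaks) against 5.1 and 0.0 with SKBG-1(R) (1 and 0 peaks). Both DMSO lists were thus far above both SKBG-1(R) lists, an order found in 9.41% of all 478 genes tested, and the shortest list held the most. The DMSO peaks were all intronic and spread from 43.38 to 352.46 kb from the gene start. The single SKBG-1(R) peak lay outside that span, at 38.56 kb. The log2 difference was −4.51 ± 0.98 (SE), with a limma p adjusted by Benjamini-Hochberg of 0.067, above the threshold of 0.05. The authors' enrichments of the DMSO peaks, 3.0 to 4.32, reached down to the lowest value the lists allow. AFF3 passed the threshold under some alternatives, while 13 of 18 called 0 genes. Its limma adjusted p was 0.00794 with the replicate number as a block, 0.0161 with at least 5 peaks per gene and 0.0319 with summed peak width. Without DMSO replicate 2 its difference was −5.28.

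Some other long transcripts had the same order of groups. Of the 59 tested genes of 200 kb or more, however, both SKBG-1(R) lists were above both DMSO lists in 8 and below in 11. SRRM4, which encodes a splicing factor of neural microexons, held 89.7 and 8.2 peaks per 10000 in DMSO (6 and 3 peaks) and was listed at 0 in both SKBG-1(R) lists. SGCZ, which encodes a sarcoglycan, held 29.9 and 24.5 (2 and 9 peaks) and was at 0 with SKBG-1(R). With both lists of a group at 0, no fold change is given for these genes, which passed the filter only through the other lists. PPP3CA, the catalytic subunit of the phosphatase calcineurin, held 89.7 and 68.0 in DMSO against 30.7 and 1.3 with SKBG-1(R), a log2 difference of −2.52 ± 1.02 (SE). Without SKBG-1(R) replicate 1 it was −3.81, and without SKBG-1(R) replicate 2 it was −1.23. All PPP3CA peaks of the 4 lists lay in the first intron, and every list had peaks near its start, the nearest at 1.84 and 1.85 kb in DMSO and at 1.84 and 2.41 kb with SKBG-1(R). The DMSO lists also held peaks as far as 71.49 and 175.76 kb from the gene start, where the 8 SKBG-1(R) peaks ended at 2.75 kb.

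Genes of chromatin regulators were also among those with fewer peaks per 10000. EHMT1, a histone H3 lysine 9 methyltransferase, held 149.5 and 95.2 per 10000 in DMSO against 35.8 and 14.8 with SKBG-1(R), at −2.15 ± 0.91. PHF21B, a PHD finger protein, held 59.8 and 78.8 against 5.1 and 16.2, at −2.37 ± 0.96. BCOR, a corepressor subunit of a Polycomb complex, held 74.7 and 127.8 against 15.4 and 54.6, at −1.58 ± 0.93. By plain count EHMT1 held 10 and 35 peaks in DMSO against 7 and 22 with SKBG-1(R). PHF21B held 4 and 29 against 1 and 24. BCOR held 5 and 47 against 3 and 81, which is more in replicate 2. Per 10000 the groups of these 3 genes did not overlap, and the largest DMSO to SKBG-1(R) contrast was in PHF21B. Without SKBG-1(R) replicate 1 the difference of BCOR was −0.79.

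The noncoding transcript C22orf34 was the lower gene with the most peaks. It held 448.4 and 372.5 per 10000 in DMSO against 143.4 and 158.3 with SKBG-1(R) (30 and 137 peaks against 28 and 235), at −1.41 ± 0.77. Its sites were largely shared: 22 of the 30 peaks in DMSO replicate 1 and 105 of the 137 in DMSO replicate 2 overlapped a peak of the same-numbered SKBG-1(R) list. By plain count C22orf34 was lower in replicate 1 and higher in replicate 2, and with no scaling to list length its difference turned to 0.34, and that of BCOR to 0.14. The other lower genes were PTPRN2 at −1.91, LZTS2 at −2.05 and RGS20 at −1.99. By plain count PTPRN2 held 4 and 37 peaks in DMSO against 1 and 67 with SKBG-1(R). LZTS2 held 1 and 14 against 0 and 9, and RGS20 2 and 7 against 0 and 10. PTPRN2 was at −0.73 without SKBG-1(R) replicate 1 and at −3.09 without SKBG-1(R) replicate 2. PTPRN2 encodes a protein of secretory granules, LZTS2 a zipper protein and RGS20 a regulator of G protein signalling.

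In the opposite direction, the transcripts with more peaks per 10000 with SKBG-1(R) included UNKL and ANKRD11. UNKL encodes a zinc finger protein and lies on chromosome 16 from 1363205 to 1414751. It held 0.0 and 21.8 in DMSO against 138.2 and 51.9 with SKBG-1(R) (0 and 8 peaks against 27 and 77), at 3.04 ± 1.04, and at 1.77 without DMSO replicate 1. All 8 peaks of DMSO replicate 2 overlapped peaks of SKBG-1(R) replicate 2, which covered the same stretch and reached beyond it, from 35.20 to 51.13 kb from the gene start against 35.88 to 42.3 kb. ANKRD11, a chromatin cofactor that recruits histone deacetylases, held 59.8 and 73.4 in DMSO against 327.7 and 175.8 with SKBG-1(R) (4 and 27 peaks against 64 and 261), at 1.79 ± 0.82. The 4 peaks of DMSO replicate 1 lay within 1.16 kb of the ANKRD11 start, and those of SKBG-1(R) replicate 1 reached 188.57 kb. In the longer lists the farthest ANKRD11 peak lay at 197.68 kb in DMSO and at 198.24 kb with SKBG-1(R). Both genes had non-overlapping groups, as did 10.5% of all genes tested in this direction.

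Several of the higher transcripts were without any DMSO peak, and for these no fold change is given. ACTN4, the actin crosslinker alpha-actinin 4, held 112.6 and 6.7 peaks per 10000 with SKBG-1(R) (22 and 10 peaks), all in introns. CARS, the cysteinyl-tRNA synthetase, held 20.5 and 15.5, and DLG5, a scaffold of cell junctions, 20.5 and 12.1. SLC7A1, a transporter of cationic amino acids, held 51.2 and 5.4, and ARHGEF2, a guanine nucleotide exchange factor bound to microtubules, 20.5 and 8.8. Each of these 5 genes was higher in the shorter SKBG-1(R) list than in the longer one.

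GATAD2A, which belongs to the NuRD remodelling complex, held 0.0 and 8.2 in DMSO against 46.1 and 31.0 with SKBG-1(R), at 2.48 ± 1.07. TCF20, a transcriptional coregulator, held 0.0 and 24.5 against 51.2 and 62.6, at 2.41 ± 1.09. Without DMSO replicate 1 the TCF20 difference was 1.08, and without DMSO replicate 2 it was 3.75. PISD, which makes phosphatidylethanolamine in mitochondria, held 0.0 and 2.7 against 20.5 and 24.9, and TRIB3, a pseudokinase induced by stress, 0.0 and 2.7 against 46.1 and 8.8. All 9 TRIB3 peaks of SKBG-1(R) replicate 1 and all 13 of replicate 2 lay between 18.4 and 19.57 kb from the gene start. VAV2, a signalling adaptor with guanine nucleotide exchange activity, differed from the rest: it held 0.0 and 2.7 in DMSO against 5.1 and 64.7 (1 and 96 peaks) with SKBG-1(R), so that its difference of 2.17 ± 1.17 rests mainly on 1 list. Without SKBG-1(R) replicate 2 it was 0.75.

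**Figure D1:**
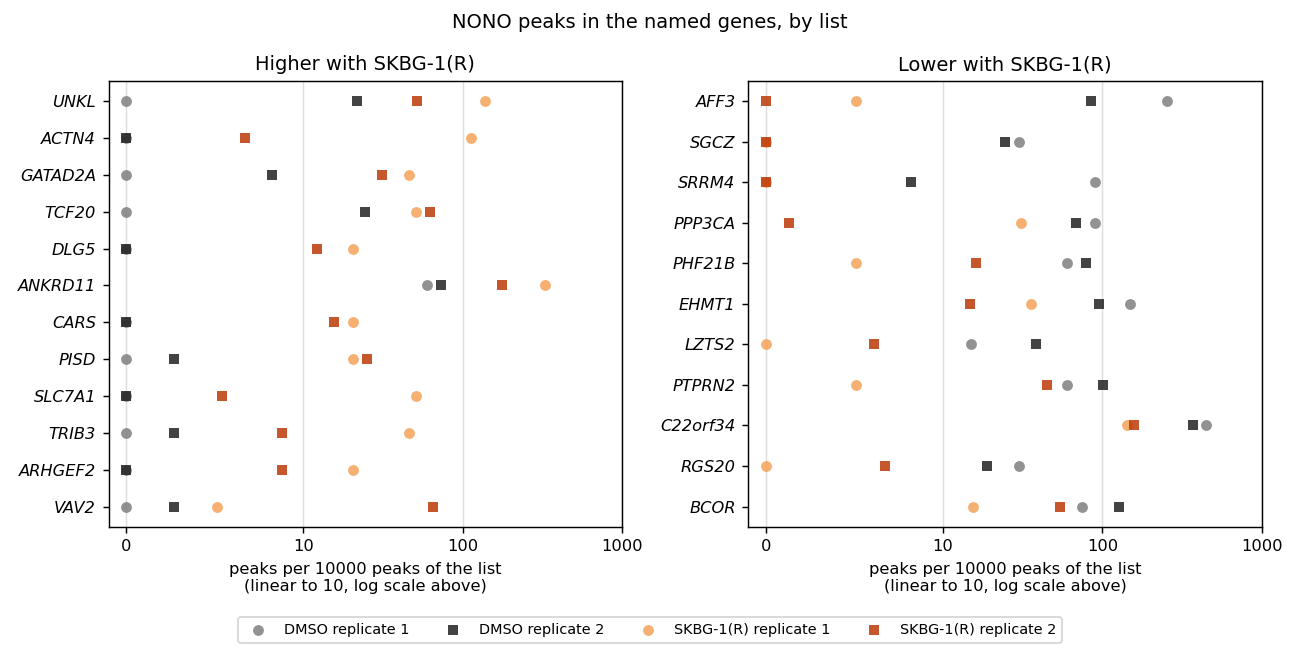
NONO peaks per 10000 peaks of the list (horizontal axis, linear to 10 and logarithmic above) in the genes with the smallest p among those with 1 direction of difference in replicate 1 and replicate 2, 12 higher and 11 lower with SKBG-1(R). Each point is 1 list; the 2 SKBG-1(R) lists of AFF3 sit at 5.1 and 0.0, left of the DMSO lists at 254.1 and 84.3.

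No gene passed the main test over all genes. Of 478 genes that reached 10 peaks summed over 6 lists, limma with Benjamini-Hochberg adjustment called 0 (0.0%) in either direction. At an unadjusted p under 0.05 there were 8 higher genes (1.67%) and 7 lower ones (1.46%). That fit took no account of the replicate number. With the number added as a block, limma called AFF3 alone, and 23 higher and 14 lower genes had an unadjusted p under 0.05. Both SKBG-1(R) lists stood above both DMSO lists for 50 genes (10.5%) and below for 45 (9.41%). The named genes were taken from the ends of this ranking, so their order of groups adds no evidence of its own. The median gene stood at 0.23 on the log2 scale, at 0.49 with TMM scaling, at 1.10 with no scaling and at −0.585 with lists of equal size. The values given for genes include that shift. The median 95% interval of a gene reached 2.23 to either side, which is the size of most differences named above. Nothing in the labels tells whether replicates came from separate cultures. The p-values therefore measure the spread between these lists, which may be technical.

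The 2 same-numbered pairs of lists gave the same direction for a minority of genes. In 87 genes (18.2%) SKBG-1(R) was higher in both pairs, in 83 (17.4%) it was lower in both, in 144 the pairs went opposite ways, and in 164 a pair showed no difference, nearly always replicate 1 with 0 peaks in both lists. Across the 478 genes, which are not independent replicates, the differences of the pairs had a Pearson r of 0.177 and a Spearman rank correlation of 0.133. AFF3 was at −4.74 in replicate 1, and in replicate 2 it held 31 peaks in DMSO and none with SKBG-1(R). ANKRD11 was at 2.37 and 1.21, and PPP3CA at −1.42 and −3.62.

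**Figure D2:**
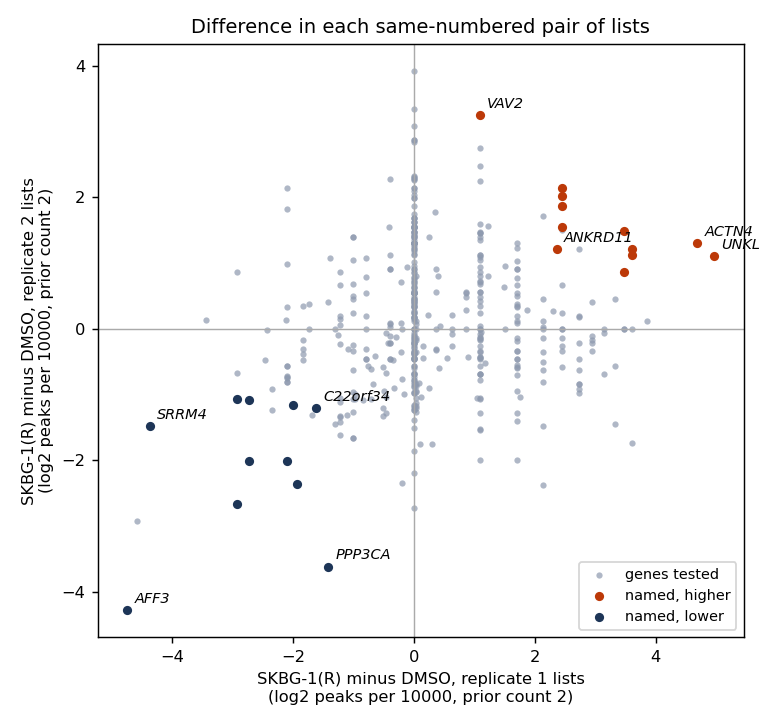
Difference of log2 peaks per 10000 (prior count 2), SKBG-1(R) minus DMSO, in the replicate 1 lists (horizontal) and the replicate 2 lists (vertical), 1 point for each of 478 genes. Named higher genes are at the upper right and named lower genes at the lower left, and 161 genes lie on the vertical line at 0, with no difference in replicate 1. The place of a gene with 0 peaks in a list, such as UNKL and ACTN4 in DMSO replicate 1, depends on the prior count.

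The transcripts that carry the most NONO peaks were partly the same in both groups. MIRLET7BHG, the noncoding host of let-7 microRNAs, held 867.0 and 114.2 peaks per 10000 in DMSO against 327.7 and 245.8 with SKBG-1(R), groups that overlap widely. IQSEC2, an exchange factor of synapses, held 209.3 and 51.7 against 225.3 and 12.1, and SLC7A5, a carrier of leucine and related amino acids, 149.5 and 135.9 against 61.4 and 151.5. GSE1, a subunit of a histone demethylase complex, held 29.9 and 231.1 against 10.2 and 241.1. For IQSEC2 and GSE1 the replicate number separated the lists more than the treatment did. C7orf50 and BAHCC1 were at 0 in both replicate 1 lists and held 146.8 and 138.7 in DMSO replicate 2 and 177.8 and 113.2 in SKBG-1(R) replicate 2.

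Within a list, the peaks with the highest −log10 p were taken in a number equal to the shortest list, 669. For DMSO replicate 1 these are all its peaks, while in DMSO replicate 2 and SKBG-1(R) replicates 1 and 2 they start at 9.71, 6.37 and 31.62. Ranks from lists of such unequal length differ between lists but cannot show a change between treatments. They are given as a description of each list. In SKBG-1(R) replicate 2 MIRLET7BHG held 193 of them (28.85%) and CCND1, the gene of cyclin D1, which drives entry into S phase, 153 (22.87%). In SKBG-1(R) replicate 1 CCND1 held 34 and ANKRD11 27. In DMSO replicate 2 C22orf34 held 65 and SLC7A5 37.

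Over the full lists CCND1 held 224.2 and 29.9 peaks per 10000 in DMSO against 286.7 and 113.8 with SKBG-1(R), and the groups overlap. Its difference of 1.06 ± 1.11 turned to −0.30 when DMSO replicate 2 was left out. All 15 CCND1 peaks of DMSO replicate 1 and all 11 of DMSO replicate 2 overlapped peaks of the same-numbered SKBG-1(R) list, while 15 of 56 and 24 of 169 SKBG-1(R) peaks overlapped a DMSO peak. In both groups the intronic CCND1 peaks began at about 3 kb from the gene start, at 3.45 and 3.15 kb in DMSO and at 3.15 kb in both SKBG-1(R) lists. The SKBG-1(R) lists also held 2 and 13 peaks in the CCND1 3′ UTR, where DMSO held 0 and 0.

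**Figure D3:**
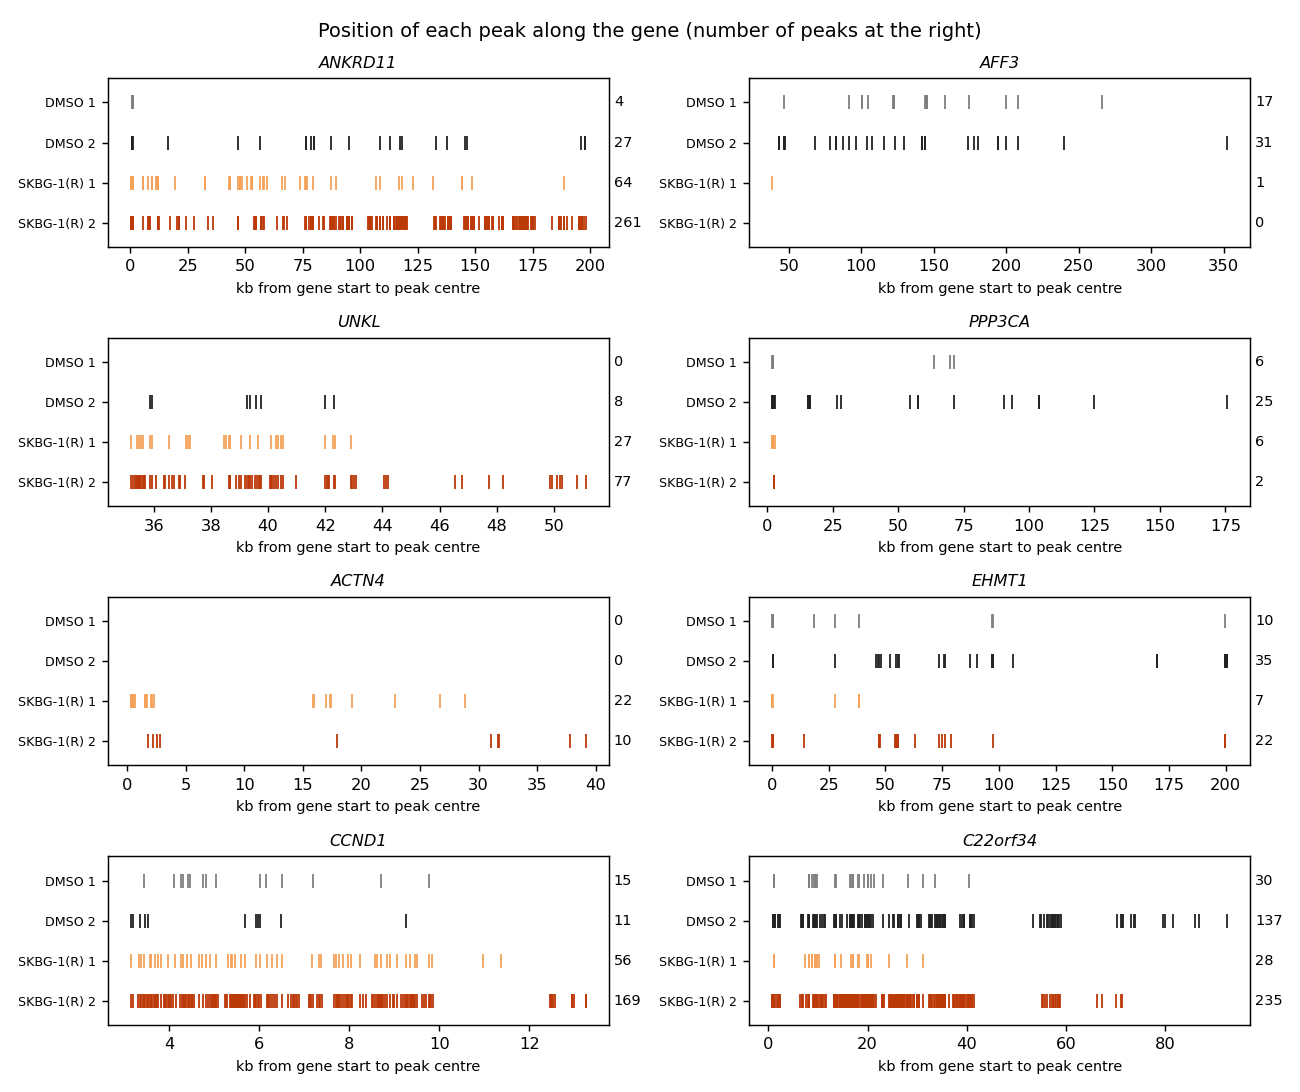
Position of the centre of every peak along 8 genes, in kb from the gene start (horizontal), with 1 row per list and the number of peaks at the right of each row. In AFF3 the DMSO rows hold 17 and 31 peaks and the SKBG-1(R) rows 1 and 0, and in PPP3CA the SKBG-1(R) peaks lie within 2.75 kb of the start.

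The genes were also read by groups, listed with earlier results of these data known. The lists of long genes with neuronal roles, of ATF4-linked genes and of cytoskeleton genes hold members that those results had singled out, so their direction is no independent evidence. Of 68 long neuronal-type genes 7 were tested. Per 10000, both SKBG-1(R) lists were below both DMSO lists in 7 of 7, where 9.41% of all genes tested were. The median was −2.52, against 0.23 over all genes. With SKBG-1(R) 3 of the 7 were at 0, so that their values depend on the prior count. Those 3 passed the filter only through the other lists, so their place below DMSO is no evidence. Beside AFF3, SGCZ, SRRM4, PTPRN2 and PPP3CA these were PDE4D and DPP10. PDE4D, a phosphodiesterase of cyclic AMP, had 2 and 1 peaks in DMSO against 0 and 0 with SKBG-1(R). It reached the 10 peaks of the filter only with its 1 and 6 peaks in the SKBG-1(S) lists. DPP10, a potassium channel partner, held 44.8 and 24.5 per 10000 against 15.4 and 6.1. Unscaled, DPP10 did not differ: each replicate 1 list held 3 of its peaks and each replicate 2 list 9. Its place below DMSO thus rests on the scaling to list length. Of its DMSO peaks, 3 of 3 and 7 of 9 overlapped the same-numbered SKBG-1(R) list.

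The list of stress response genes had the other order, and the cytoskeleton list was divided. Of 42 genes linked to ATF4, the transcription factor of the integrated stress response, 6 were tested, and in 5 both SKBG-1(R) lists were above both DMSO lists (all genes 10.5%), with a median of 1.73. They were CARS, SLC7A1 and TRIB3, the glycine transporter SLC6A9 (0 and 0 peaks against 1 and 12) and the transcription factor ATF3 (0 and 0 against 1 and 5). SLC7A5 was the exception, at −0.54. Of 53 cytoskeleton genes 9 were tested, with 4 above, 0 below, 5 with overlapping groups and a median of 0.98. Those with the most peaks overlapped: SEPT9, a septin, held 0.0 and 46.2 per 10000 in DMSO against 0.0 and 143.5 with SKBG-1(R), and PLEC, the linker protein plectin, 0.0 and 84.3 against 0.0 and 47.1. The 4 above were ACTN4, ARHGEF2, the unconventional myosin MYO18A (0 and 1 peaks against 1 and 13) and ACTB, the gene of beta-actin (0 and 0 against 2 and 6). SLC6A9, ATF3 and MYO18A rest on 1 peak in SKBG-1(R) replicate 1. Of the tested members, 4 in each of these lists were at 0 in both lists of a group. The medians therefore depend on the prior count. CARS, SLC7A1, SLC6A9, ATF3, ACTN4, ARHGEF2 and ACTB held 0 peaks in both DMSO lists. They reached the 10 peaks of the filter only through lists of the compounds, so their place above DMSO is no evidence.

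Chromatin lists were mixed, and their counts are to be read against the 10.5% of all genes tested that stood above and the 9.41% that stood below. Of 55 genes of histone methylation and corepressors 19 were tested, with 1 above (ANKRD11), 3 below (EHMT1, PHF21B and BCOR) and a median of −0.26. Corepressor CTBP1 held 29.9 and 95.2 per 10000 in DMSO against 10.2 and 80.2 with SKBG-1(R). Among NuRD components and recruiting factors 4 were tested, with GATAD2A above and a median of 0.46. ZFPM1, a recruiter of NuRD, held 14.9 and 81.6 in DMSO against 0.0 and 166.4 with SKBG-1(R), and MTA1 0.0 and 5.4 against 0.0 and 20.9. Of BET readers and remodellers 8 were tested, with 0 above, 1 below (CHD9, a chromatin remodeller, 14.9 and 16.3 against 5.1 and 2.0) and a median of 0.51.

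RNA-binding and cell cycle lists had medians near that of all genes, of which 10.5% stood above and 9.41% below. Of 40 paraspeckle proteins 7 were tested, with 0 above, 2 below and a median of 0.22. DAZAP1, an RNA-binding protein, held 29.9 and 40.8 per 10000 in DMSO against 35.8 and 47.8 with SKBG-1(R). HNRNPF, which binds G-rich RNA, held 29.9 and 21.8 against 10.2 and 8.1 (2 and 8 peaks against 2 and 12). MATR3 held 2 and 5 peaks against 2 and 2. Splicing factors (3 tested) had SRRM4 below and PTBP1 and SRPK2 at 0.51 and 0.42. G1/S regulators had 3 tested, all with overlapping groups, CCND1 at 1.06, E2F3 at −0.09 and CDKN2A at −0.43. Of TGF-beta feedback regulators 3 were tested, PMEPA1 at 0.23, SKI at 0.76 and SMAD7 at −0.46.

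Most of the remaining lists had few tested members, too few to set against those shares. Among microRNA hosts DLEU2 was below per 10000 in both lists, at 44.8 and 38.1 against 30.7 and 17.5. By plain count DLEU2 was higher with SKBG-1(R), with 3 and 14 peaks in DMSO against 6 and 26. MIR17HG was at 0.55. Of nuclear long noncoding RNAs LINC-PINT was above, with 0.0 and 10.9 against 61.4 and 12.1, and LINC00511 was at 0.91. Of electrophile and heat stress genes MAFG, a small partner of the transcription factor NRF2, held 0 and 0 peaks in DMSO against 2 and 10 with SKBG-1(R), and TKT, transketolase, was at 0.54. Prostate genes (7 tested) had a median of −0.33, with ZFHX3 at −0.33, NCOA2 at −0.32, ZBTB16 at 0.94 and SPDEF at −0.18. In none of the lists did a member pass the threshold of the limma test over all genes, and markers of other cell types held 0 peaks.

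Counted as present or absent, 188 genes held a peak in both DMSO lists and 417 in both SKBG-1(R) lists, with 151 in common, which is 80.3% of the first set and 36.2% of the second. Genes that the DMSO lists shared and both SKBG-1(R) lists lacked numbered 10. Beside SGCZ, SRRM4 and PDE4D they included the transcription elongation factor ELL2, the splicing regulator TRA2A, the synaptic adhesion gene NLGN1 and the LIM domain gene LMO7. Apart from SGCZ and SRRM4, those named here held 1 or 2 peaks in each DMSO list. The reverse set had 83 genes in lists that were longer. Beyond those already described it was led by RAPGEF1, an exchange factor for Rap1, with 25.6 and 6.1 peaks per 10000, followed by ANKRD13B with 5.1 and 5.4 and the noncoding RP11-440L14.1 with 5.1 and 7.4.

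At the level of single sites, peaks of the 4 lists merged into 15851 regions. Of these 333 were shared by the SKBG-1(R) lists and absent from both DMSO lists, 15 had the reverse pattern, and 119 were in all 4. The order depends on the length of the lists: with 669 peaks from each list the numbers were 38, 64 and 27. CCND1 held the most regions of the first kind, with 26, followed by MIRLET7BHG with 19, UNKL with 15 and ANKRD11 with 12. The strongest of them after ATXN2 were in introns of CCND1 (chromosome 11 from 69650096 to 69650196, log2 enrichment 4.53 and 5.0), GALNT7 (chromosome 4 from 173169735 to 173169783, 4.70 and 4.40) and UNKL (chromosome 16 from 1374431 to 1374496, 4.43 and 4.38).

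Regions confined to the DMSO lists were led by NRF1, a transcription factor of genes for respiration, in a proximal intron. It spans chromosome 7 from 129612302 to 129612379, with 3.95 and 3.61. SKBG-1(R) peaks lay just past this NRF1 region, from 129612381 in replicate 2 and from 129612609 in replicate 1. Under the rule of 1 shared base they do not count as the same site. Next were PPP3CA (chromosome 4 from 101276756 to 101276816, 3.57 and 4.26), PTPRN2 (chromosome 7 from 158147516 to 158147620, 3.63 and 3.55) and the 5′ UTR of SBNO2, a gene of the interleukin 10 response (chromosome 19 from 1173656 to 1173792, 3.54 and 5.24). AFF3 held 3 of the 15. Of the DMSO-only regions 10 (66.7%) were in distal introns and 2 (13.3%) in proximal ones. Of the 333 regions 134 (40.2%) were distal and 116 (34.8%) proximal. The median distance from the nearest transcript start was 9136 and 1564 bases in these sets, and 964 in the regions of all 4 lists. The first value rests on 15 regions in 12 genes, and both sets change with the length of the lists.

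The regions of all 4 lists mark sites found with and without the compound. They were led by CUX1, a homeobox factor (chromosome 7 from 101816632 to 101816929), with log2 enrichments of 4.33, 5.10, 4.38 and 5.77 in the order of lists used above. Enrichments of 1 region in different lists stand side by side and were not compared. CEP170B, a gene of a centrosome protein, followed (chromosome 14 from 104875294 to 104875414, 4.26, 4.39, 4.79 and 4.54), then SSBP2, a DNA-binding cofactor (chromosome 5 from 81750281 to 81750558, 4.207, 4.201, 5.643 and 4.731). MIRLET7BHG (chromosome 22 from 46070255 to 46070342) and BCOR (chromosome X from 40092173 to 40092296) completed the first 5. C22orf34 held the most of these regions, 12 of 119.

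Peak by peak, 61.6% of the DMSO replicate 1 list (412 peaks) and 63.5% of the DMSO replicate 2 list (2335 peaks) overlapped a peak of the same-numbered SKBG-1(R) list. Of the SKBG-1(R) lists 24.8% and 18.8% overlapped the same-numbered DMSO list. At equal length the shares were 36.9 and 25.9% of DMSO and 43.35 and 31.09% of SKBG-1(R). DMSO peaks in proximal introns overlapped at 70.0 and 67.1%, those in distal introns at 57.4 and 62.1%. Between replicates, 33.2% of DMSO replicate 1 overlapped DMSO replicate 2, and 54.4% of SKBG-1(R) replicate 1 overlapped SKBG-1(R) replicate 2. At equal length these shares were 27.35 and 25.26%. These shares move with the length of the other list: DMSO replicate 1 overlapped SKBG-1(R) replicate 2 at 60.5%, close to its share with the same-numbered list.

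The classes of region did not separate the treatments in most cases. By the authors' annotation distal introns held 36.5 and 60.01% of the DMSO peaks and 39.4 and 64.8% of the SKBG-1(R) peaks. Proximal introns, which the name of the class limits to 500 bases from the exon, held 30.9 and 20.7% against 37.8 and 17.1%. Introns of noncoding transcripts held 20.0 and 10.5% against 10.6 and 8.56%. In distal and proximal introns the replicate 1 lists differed from the replicate 2 lists by more than the treatments differed within a replicate. The noncoding share of DMSO replicate 1 stood above the other 3.

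Only 2 of 11 features of the lists (18.2%) had groups that did not overlap. One was the share of peaks in 3′ UTRs, the tails of messenger RNAs after the coding sequence: 0.299 and 0.517% in DMSO (2 and 19 peaks) and 0.666 and 1.58% with SKBG-1(R) (13 and 234 peaks), means of 0.408 ± 0.154 and 1.12 ± 0.644 (SD, n = 2). The 95% Wilson intervals, which cover counting error only, were 0.082 to 1.08% for DMSO replicate 1 and 0.389 to 1.14% for SKBG-1(R) replicate 1, and overlap. The exact two-sided permutation test gave p = 0.333, the smallest that 2 lists against 2 allow, and 1.0 after adjustment over the 11 features. The groups overlapped at a log2 enrichment of at least 4 (0.0 and 0.265% against 0.149 and 1.37%), at a −log10 p of at least 5 (0.0 and 0.286% against 0.198 and 1.57%) and with lists of equal size (0.299 and 0.149% against 0.149 and 1.49%).

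These 3′ UTR peaks fell in 81 genes, of which 67 had them in SKBG-1(R) replicate 2 alone and 5 in both SKBG-1(R) lists. The 5 were CCND1 (0, 0, 2 and 13 peaks in the order of lists used above), SSU72, a phosphatase of RNA polymerase II (0, 0, 1 and 5), RBM14, a paraspeckle protein (0, 3, 1 and 4), D2HGDH (0, 1, 2 and 4) and ARFRP1 (2, 1, 3 and 12). ARFRP1, a small GTPase of the Golgi, was alone in having 3′ UTR peaks in both DMSO lists. The largest numbers in SKBG-1(R) replicate 2 among genes without 3′ UTR peaks in the other lists were in DNAJC5 with 19 and NACC2 with 16. These 7 genes were named after their values were seen.

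The other feature was the width of the peaks, with medians of 67 and 73 bases in DMSO against 58 and 66 with SKBG-1(R), means of 70.0 ± 4.24 and 62.0 ± 5.66 (SD, n = 2; exact permutation p = 0.333, adjusted 1.0). The groups were 1 base apart at their nearest, and they overlapped at a −log10 p of at least 5 (66 and 75 against 58 and 68 bases) and with merged regions in place of peaks (73 and 80 against 65 and 75). Peaks per bound gene were 2.83 and 4.54 in DMSO against 3.87 and 11.5 with SKBG-1(R), and the 10 leading genes held 28.1 and 17.3% against 20.1 and 17.7%.

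**Figure D4:**
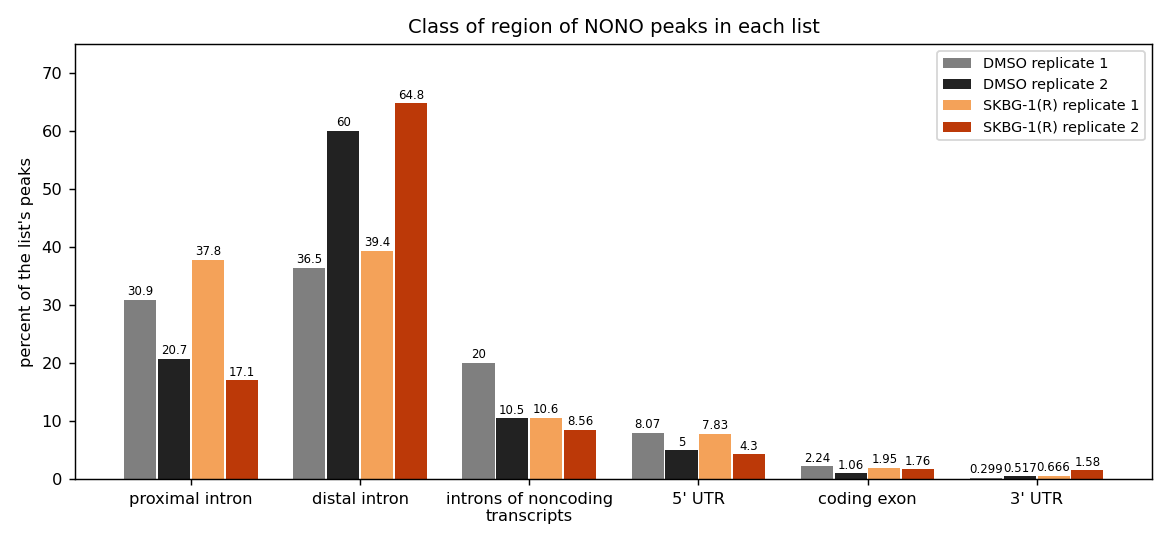
Share of each list's peaks (percent, vertical axis) in 6 classes of region as the authors annotated them, 1 bar per list. The distal intron bars pair by replicate number, 36.5 with 39.4% and 60.01 with 64.8%, and the 3′ UTR bars are at 0.299 and 0.517% in DMSO against 0.666 and 1.58% with SKBG-1(R).

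Within introns the lists paired by number in the distance from the 5′ splice site and in the share near transcript starts. The first intron share and the share near the 3′ splice site did not pair clearly. The first intron held 77.6 and 71.3% of the intronic peaks that could be placed in DMSO against 82.9 and 64.5% with SKBG-1(R). The median distance from the 5′ splice site was 837 and 3834 bases in DMSO against 712.5 and 4398.5 with SKBG-1(R), and 58.7 and 37.5% of peaks against 63.1 and 28.4% lay within 2 kb of a transcript start. SKBG-1(R) replicate 1 was thus the list nearest to gene starts and SKBG-1(R) replicate 2 the farthest from them. Peaks within 500 bases of the 3′ splice site were few in every list, 3.12 and 2.35% in DMSO against 1.94 and 3.83% with SKBG-1(R).

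Gene length showed no common order either. Of 98 tested genes of 50 to 100 kb, both SKBG-1(R) lists were above both DMSO lists in 14 and below in 1, where 10.5 and 9.41% of all genes did. Of 203 shorter genes the numbers were 17 and 22, of 105 genes of 100 to 200 kb 11 and 9, and of 59 genes of 200 kb or more 8 and 11. Medians were 0.22, 0.27, 0.36 and 0.02 from the shortest to the longest class. By chromosome, both SKBG-1(R) lists stood above both DMSO lists on 2 of 23 (8.7%) and below on 3 (13.0%). Chromosome 11, which carries CCND1, held 463.4 and 467.6 peaks per 10000 in DMSO against 645.2 and 563.1 with SKBG-1(R), and chromosome X, which carries BCOR, 448.4 and 288.2 against 281.6 and 113.2. The other chromosomes without overlap were 9, higher with SKBG-1(R), and 15 and 21, lower.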

How the data were processed

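Pull-down and input libraries of NONO in 22Rv1 cells were compared as 2 peak lists per group, grouped by sample title. The submitters' processing notes list the tools cutadapt (1.9) and STAR (2.4.0i) beside the builds hg19, hg38 and GRCh38. No source used here gives the peak caller. Per the labels, each deposited list belongs to 1 pull-down and its own input, and replicates were not pooled. The authors deposited a −log10 p and a log2 enrichment over input for each peak, both at least 3; they served here to describe, order and filter peaks of a list, and no difference between lists was drawn from them. Coordinates are GRCh38: 9009 of 9050 transcripts in the annotation (99.5%) matched GENCODE 29 within 1 base. No read counts are used here, so depth is unknown and the length of a list limits precision.

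Peaks were counted per gene, scaled to 10000 peaks and tested as log2 values with a prior count of 2 by limma 3.58.1 with a trended prior variance, all 6 lists in 1 fit, for genes with at least 10 peaks. The threshold was a Benjamini-Hochberg adjusted p of 0.05. Features of lists were tested by exact two-sided permutation. The gene test was checked on simulated lists of low spread, a check of its code and not of its power on these data. Peaks overlapped when they shared 1 base on the same strand. The gene start is the outermost start in GENCODE 29. With 2 pairs and no shared batch in the labels, the main fit held no replicate block. Same-numbered lists deviated together all the same, with r = 0.54 for DMSO and SKBG-1(R), and the block was fitted as an alternative.

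Named genes were the 12 higher and 12 lower with the smallest p among those with 1 direction in both pairs, up to 4 members with the most peaks of each gene list, genes present in both lists of 1 group only, the 10 leading genes of each list and the 5 strongest regions of each pattern. Members of lists beyond these, and those of the 3′ UTR and sequence paragraphs, were named after their values were seen. Some items that the rule names are not reported here. The comparison, the gene lists and the rules were chosen with earlier results of these data known.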

Additional observations from a re-analysis of the deposited data

How the results depend on the processing

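Of 18 alternatives to the gene test 13 called 0 genes. AFF3 alone (1 gene) was called with at least 5 peaks per gene, with the replicate block, with summed peak width and without DMSO replicate 2. Leaving out 1 list gave 0 to 23 calls, and the 23 arose without SKBG-1(R) replicate 1: all 23 were at 0 everywhere except SKBG-1(R) replicate 2, which held 10 to 96 of their peaks. The replicate block, fitted over the shared numbers, called 1 gene, where the fit without it called 0, and had 23 higher and 14 lower genes at an unadjusted p under 0.05, where the latter had 8 and 7. Same-numbered lists deviated together, with r = 0.54 for DMSO and SKBG-1(R). Of the 24 genes ranked by p, 22 kept their direction in every alternative run, and C22orf34 and BCOR turned under no scaling. They were chosen for 1 direction in both pairs, so this stability was largely fixed by the choice and adds no evidence. AFF3 ranged from −5.79 to −1.92 (limma adjusted p 0.00794 to 1.0).

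For 7 of the 11 features the difference changed sign under an alternative; the cause was not tested. The intronic share, −0.244 percentage points, became 0.177 at a log2 enrichment of at least 4, 0.423 at a −log10 p of at least 5, 0.897 with lists of equal size and 0.383 without the 10 leading genes, and ran from −2.14 to 1.66 without 1 list. Proximal introns (1.59) became −0.281 without the leading genes and ran from −8.77 to 11.96. Distal introns (3.86) became −1.20 at equal size and ran from −8.81 to 16.5. The 5′ UTR share (−0.472) became 0.0945 at a −log10 p of at least 5 and ran from −2.24 to 1.30. Coding exons (0.204) became −0.184 at that limit, −0.0747 at equal size and −0.119 without the leading genes, and ran from −0.387 to 0.795. The share of the 10 leading genes (−3.78) became 22.1 at equal size and ran from −9.17 to 1.62, and the first intron share (−0.724) ran from −9.94 to 8.49. Noncoding introns (−10.45 to −0.942), 3′ UTRs (0.258 to 1.17), peaks per gene (0.187 to 7.83) and median width (−12 to −4 bases) kept their sign without 1 list. Equal size keeps all of DMSO replicate 1 and only the strongest peaks of the other lists. With it, regions of both SKBG-1(R) lists alone numbered 38 and of both DMSO lists alone 64, against 333 and 15.

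The comparison of GC content was not run, since no genome sequence was used here.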
